A study of Mus musculus with 10 samples.

Results

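The 10 genes Xrn2, Pcf11, Cpsf1, Cpsf2, Cpsf3, Cpsf4, Cstf1, Cstf2, Cstf3 and Fip1l1 encode factors that cut nascent messenger RNA at its 3′ end and release RNA polymerase II from the template. They were picked by name, as the rows whose Ensembl mouse gene identifier belongs to 1 of these symbols, and all 10 were found among 55487 genes. The series comprises 10 samples in 6 groups, all of E14, an established mouse embryonic stem cell line. The 7 samples in which R-loops (RNA paired with 1 strand of DNA) were mapped were not analysed here. All values come from the RNA-seq group, 3 replicates of cells with no perturbation named in the labels, cultured in DMEM with 15% fetal bovine serum, LIF, 3 µM of a GSK inhibitor and 1 µM of a MEK1/2 inhibitor. The libraries were made from total RNA after DNase treatment and ribosomal RNA depletion, so unspliced RNA could enter them. The labels do not say whether the replicates were separate cultures, so the spread between them may be technical. With 1 condition measured, the comparisons are between genes within the libraries.

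A messenger RNA ends where the nascent transcript is cleaved and a poly(A) tail is added. The cleavage and polyadenylation specificity factor, CPSF, recognises the hexamer AAUAAA or a variant of it and cuts downstream of it. The cleavage stimulation factor, CstF, binds a U- or GU-rich element past the cut. Cleavage factor II, of which Pcf11 is a subunit, joins this machinery to the tail of the polymerase, and the 5′ to 3′ exonuclease Xrn2 degrades the RNA still being made after the cut. R-loops near gene ends are studied in connection with this step, and in mouse embryonic stem cells Fip1l1 is known for its part in the choice of poly(A) site and in self-renewal.

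Estimated counts summed to 11420425 in replicate 1, 6467405 in replicate 2 and 5787357 in replicate 3. Beyond sampling noise the replicates differed in every pair, with chi-square values of 9.94 to 46.7 per degree of freedom over 8300 genes. Genes with an effective length under 100 nt held 60.3% to 65.8% of the TPM (a count divided by effective length and scaled to 1 total per library), which lowers the TPM of all longer genes. Replicate 1 gave the highest TPM for all 10 factor genes, as it did for 8379 of 9683 protein-coding genes with a mean of at least 1 TPM, called expressed below. The 6 pluripotency markers, among them Pou5f1 and Nanog, had mean levels of 32.9 to 331 TPM. Of 6 fibroblast markers only Thy1 reached 1 TPM, at 2.50 ± 1.15 TPM (SD, n = 3), while Col3a1, Twist2 and Lum had 0 counts. None of 6 markers of differentiated cells reached 1 TPM, with Sox1 highest at 0.73 TPM.

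All 10 factor genes were expressed, with at least 1 TPM in every replicate. The limit of a mean of 1 TPM was reached by 19.8% of all genes and by 44.1% of protein-coding genes. The median level of the 10 genes was 3.83 ± 0.37 (SD, n = 3) on the log2(TPM + 1) scale, beside 2.72 ± 0.29 for expressed protein-coding genes. Their mean levels lay between 9.70 TPM for Cpsf2 and 26.7 TPM for Xrn2. In terms of rank among expressed protein-coding genes, this span ran from the 67.4 to the 88.9 percentile.

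**Figure D1:**
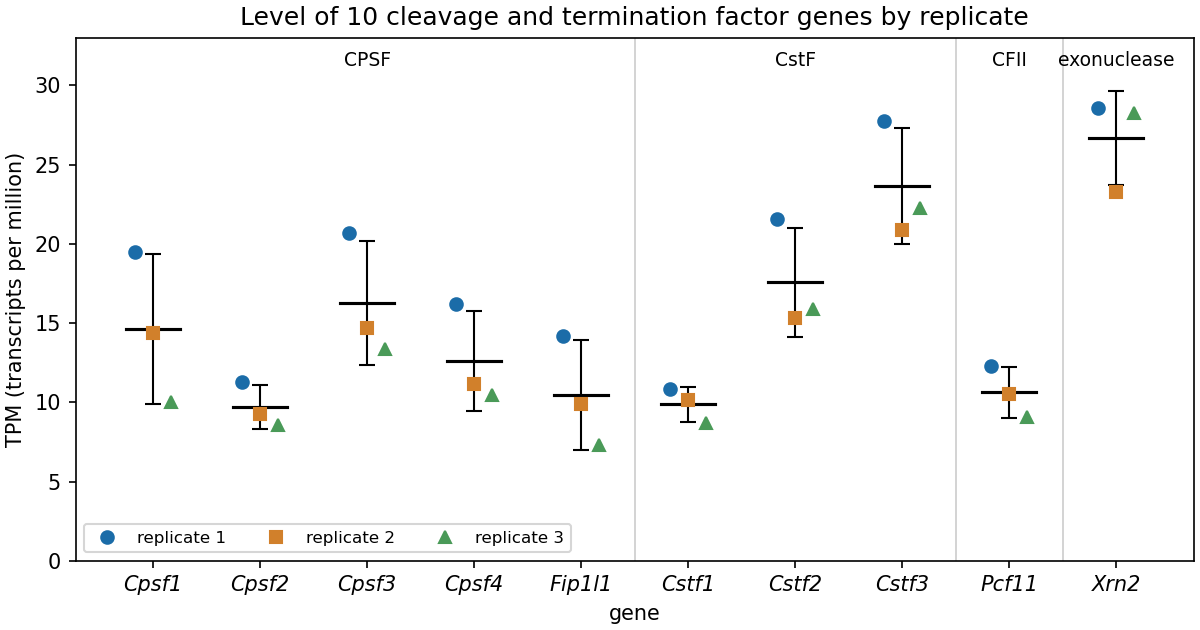
TPM (y axis, linear from 0) of the 10 genes (x axis) in replicates 1 to 3 (circles, squares and triangles), with the mean (horizontal line) and SD (bar) of 3 replicates; genes are grouped as CPSF, CstF, CFII (cleavage factor II) and the exonuclease. Replicate 1 is the highest point of every gene, and Xrn2 has the highest mean, 26.7 TPM.

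The hexamer that CPSF recognises can be read in these genes' own transcripts. The last 50 bases of the longest complete coding transcript were searched on the transcript strand for AATAAA and, failing that, for ATTAAA, the DNA spelling of the 2 commonest signals. AATAAA was present in 6 of the 10 genes (Xrn2, Cpsf2, Cstf1, Cstf2, Cstf3 and Fip1l1), ATTAAA alone in Pcf11 and Cpsf4, and neither in Cpsf1 and Cpsf3. Among expressed protein-coding genes the shares were 64.3%, 14.7% and 21.0%, so the factor genes are divided much as other genes are. A match is a description of letters and does not show where these cells cleave the RNA. Windows of 30 bases with the hexamer in capitals are shown for 2 genes of each kind, all GENCODE transcripts on GRCm38: Xrn2 at chr2:147077968-147077997 (plus strand), Cstf3 at chr2:104665393-104665422 (plus strand), Pcf11 at chr7:92643555-92643584 (minus strand) and Cpsf4 at chr5:145182010-145182039 (plus strand).
Xrn2: taaaaaaataaaAATAAAgctaaactttaa
Cstf3: tcctttgaaaggAATAAAaggacctcaaaa
Pcf11: tacatatacagtATTAAAacttgtgatttt
Cpsf4: tctatgaggttgATTAAAaagcttgttttt
The hexamer in capitals ended 15 bases before the annotated transcript end in Xrn2, 19 in Cstf3, 24 in Pcf11 and 13 in Cpsf4. In Xrn2 the same letters also stand directly before it, in lower case.

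Among the CPSF genes, Cpsf3 encodes the endonuclease that makes the cut (chr12:21285391-21315056, plus strand, GRCm38, ENSMUSG00000054309). It was at 20.7, 14.7 and 13.4 TPM in replicates 1, 2 and 3, from 941, 500 and 466 counts. That is a mean of 16.3 ± 3.90 TPM (SD, n = 3), the highest of the 5 CPSF genes. Cpsf2 encodes the endonuclease's catalytically inactive partner (chr12:101975988-102006424, plus strand, ENSMUSG00000041781). Its levels of 11.3, 9.29 and 8.54 TPM were the lowest mean of all 10 genes, 9.70 ± 1.41 TPM (SD, n = 3). In counts, Cpsf2 was near the top instead, with 1710, 985 and 908, since its 1 annotated transcript is 5732 nt long. Per TPM the pair stood at 0.61 ± 0.05 Cpsf2 to 1 Cpsf3 (SD, n = 3), and Cpsf2 was lower in 3 of 3 replicates. In CPM, where counts are scaled by library size alone and not by length, the same ratio was 1.91 ± 0.08, and Cpsf2 was higher in 3 of 3. In CPM per kb of the longest complete coding transcript it was 0.83 ± 0.04, with Cpsf2 lower in 3 of 3.

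Cpsf1 encodes the large scaffold subunit (chr15:76595803-76607591, minus strand, ENSMUSG00000034022). It was at 19.5, 14.4 and 10.1 TPM, a 1.94-fold range between replicates, and at 14.6 ± 4.72 TPM on average (SD, n = 3). Its counts of 948, 550 and 297 gave 79.4, 82.9 and 55.9 CPM after scaling by the trimmed mean of M values (TMM). In CPM replicates 1 and 2 were close to each other and replicate 3 was low, while in TPM the 3 replicates were spread out. Cpsf4 encodes a zinc finger protein that helps bind the hexamer (chr5:145167213-145182041, plus strand, ENSMUSG00000029625). It was at 16.2, 11.2 and 10.5 TPM from 740, 361 and 342 counts, with replicates 2 and 3 close together and replicate 1 above both.

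Fip1l1 encodes the subunit that binds U-rich RNA and poly(A) polymerase (chr5:74535449-74598800, plus strand, ENSMUSG00000029227). Its levels of 14.2, 9.90 and 7.33 TPM spanned a 1.94-fold range. Its TMM-scaled CPM was 56.5, 57.1 and 56.3, the most even of the 10 genes. The estimated length of its RNA, by contrast, ran from 1889 to 2282 nt. So the same reads gave replicates that were nearly equal before division by length and 1.94-fold apart after it and the TPM scaling. Part of that range was shared with other genes: the median TPM of expressed protein-coding genes was 7.11 in replicate 1 and 4.39 in replicate 3.

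Cstf2 encodes the CstF subunit that touches the GU-rich element (chrX:134059187-134086819, plus strand, ENSMUSG00000031256). It was at 21.6, 15.3 and 15.9 TPM from 1419, 760 and 613 counts. Cstf3 encodes the subunit that holds the complex together (chr2:104590523-104665429, plus strand, ENSMUSG00000027176), and it was at 27.8, 20.9 and 22.3 TPM from 918, 495 and 419 counts. Cstf1 encodes a WD-repeat subunit (chr2:172370681-172382448, plus strand, ENSMUSG00000027498). At 10.8, 10.2 and 8.68 TPM from 686, 412 and 356 counts, Cstf1 was below both of its partners in every replicate, and its range did not overlap theirs. Cstf3 exceeded Cstf1 by 2.40 ± 0.30-fold in TPM and by 1.52 ± 0.11-fold in CPM per kb of the longest complete coding transcript (SD, n = 3). Cstf2 exceeded Cstf1 by 1.78 ± 0.25-fold and 1.44 ± 0.13-fold on the same 2 scales. Per kb of its longest transcript of any kind, a retained-intron model of 7514 nt, Cstf2 was instead below Cstf1 in 3 of 3 replicates, at 0.86 ± 0.08. Cstf3 was above Cstf2 in TPM, 1.35 ± 0.06-fold, in 3 of 3 replicates, but below it in CPM, at 0.66 ± 0.02, in 3 of 3.

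Pcf11 (chr7:92643543-92669934, minus strand, ENSMUSG00000041328) was at 12.3, 10.5 and 9.06 TPM from 1331, 735 and 630 counts. It exceeded Clp1, the other subunit of cleavage factor II and an RNA kinase, by 1.73 ± 0.20-fold in TPM in 3 of 3 replicates. Xrn2 (chr2:147012996-147078000, plus strand, ENSMUSG00000027433) was at 28.6, 23.3 and 28.2 TPM from 1863, 1110 and 1010 counts. It was the highest of the 10 genes in every replicate, and its lowest replicate lay within the range of Cstf3 alone.

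In order of mean TPM the genes ran Xrn2, Cstf3, Cstf2, Cpsf3, Cpsf1, Cpsf4, Pcf11, Fip1l1, Cstf1 and Cpsf2. Every pair of neighbours in that order had overlapping ranges. Of the 45 possible pairs, 40 kept their order in all 3 replicates and 22 had ranges that did not overlap. Xrn2 exceeded Cpsf2, the lowest, by 1.46 ± 0.23 on the log2 scale, which is 2.78 ± 0.45-fold (SD, n = 3). With 3 replicates a two-sided exact sign-flip test of 1 such pair cannot give a p below 0.25, so none is given.

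The order depended on how length was treated. Xrn2 was first on each of 3 scales: CPM, TPM, and CPM per kb of the longest complete coding transcript. Cpsf2 was at rank 10 by TPM, at rank 2 by CPM with 153 ± 3.63 CPM, and at rank 5 per kb of coding transcript (SD, n = 3). Cstf3 went from rank 2 by TPM to rank 6 by CPM. Cpsf4 went from rank 9 by CPM to rank 2 per kb of coding transcript, and Fip1l1 took the last place on both of these scales. Median TPM was 12.5 ± 3.28 for the 5 CPSF genes and 17.6 ± 3.45 for the 3 CstF genes, a log2 ratio of -0.51 ± 0.13 (SD, n = 3). That ratio became 0.05 ± 0.15 per kb of coding transcript, with no direction larger than the spread.

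**Figure D2:**
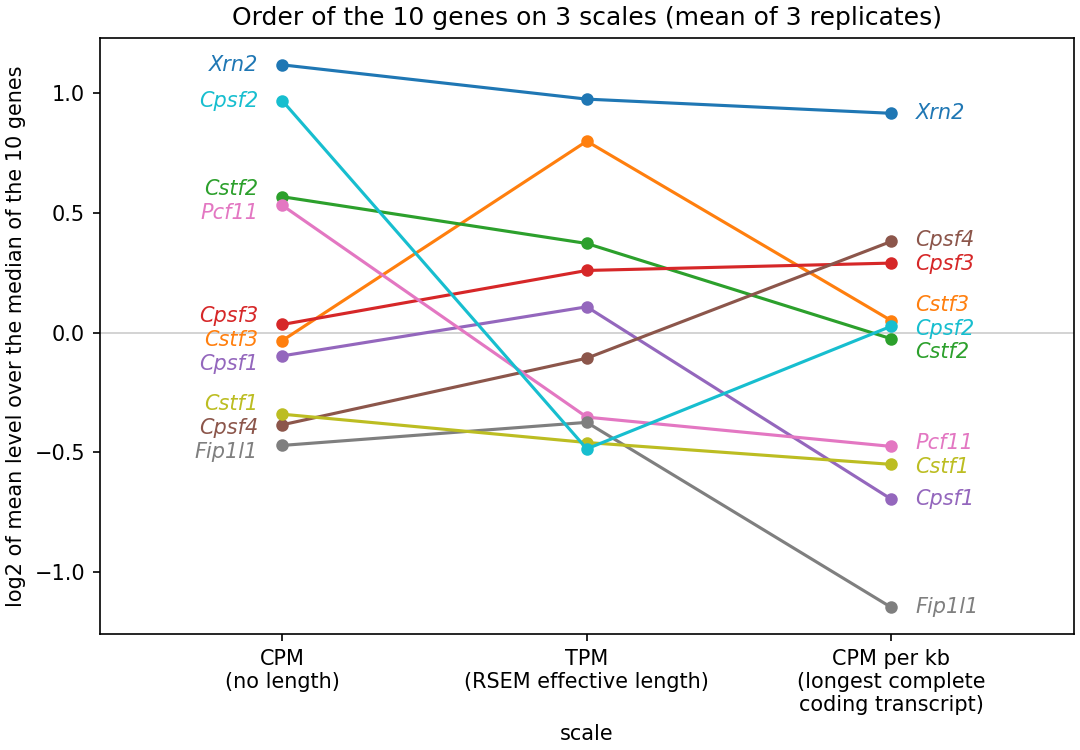
log2 of each gene's mean level over the median of the 10 genes (y axis) on 3 scales (x axis), CPM, TPM, and CPM per kb of the longest complete coding transcript; each line is 1 gene, mean of 3 replicates. Xrn2 stays on top, while Cpsf2 falls from rank 2 to the bottom between CPM and TPM.

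The length that separates these scales is RSEM's own estimate, the average length of a gene's annotated transcripts weighted by their estimated abundance. It lies between the models' lengths, so it limits how the molecules can be divided among them. Models were split into complete coding transcripts and all others (retained introns, fragments of coding models, decay targets), a split chosen after the values were seen. The estimate was below the length of every complete coding model in all replicates for Xrn2, Cpsf1, Cstf1 and Cstf3, and above it for Cpsf4. For these 5 of the 9 factor genes with more than 1 model, some molecules must have been assigned to other models. The same was true of 54.6% of 6801 expressed protein-coding genes of at least 100 mean counts with both kinds of model. That share is close to the factor genes' own.

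Cstf1 has only 2 models, a complete one of 3451 nt and one of 674 nt, so its division follows from the length. The short model took 35.1%, 42.02% and 41.6% of molecules in replicates 1, 2 and 3, but 8.04%, 10.4% and 10.4% of counts. This left 7.02, 5.89 and 5.07 TPM for the complete transcript. Xrn2 has 1 complete model of 3434 nt and 3 retained-intron models of 335 to 623 nt. The latter took 28.8% to 31.8% of its molecules in replicate 1, 25.0% to 27.6% in replicate 2 and 45.7% to 50.4% in replicate 3. For the complete Xrn2 transcript this leaves at most 20.3, 17.4 and 15.3 TPM, so replicate 3, which was next to the highest in total Xrn2, was the lowest here.

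For Cpsf1 the length of 1932, 2163 and 1690 nt stood far below the complete models of 4410 and 4518 nt. At least 58.8%, 53.4% and 64.6% of its molecules were assigned to its 18 other models, of which 12 are retained introns. For Cstf3, at 1356, 1397 and 1124 nt against a complete model of 2817 nt, the least share was 61.0%, 59.2% and 70.7%. Averaged over replicates, these minimum shares stood at the 94.5 percentile of the 6801 genes for Cpsf1, 96.1 for Cstf3, 84.2 for Cstf1 and 79.6 for Xrn2, where the median gene had 6.82%. The complete coding transcripts of Cpsf1 and Cstf3 thus held at most 6.09 ± 2.29 and 8.62 ± 2.16 TPM (SD, n = 3). In Cpsf4 the minimum was 5.45%, 7.86% and 7.89%, on its retained-intron model of 2971 nt. In Cstf2 it was 6.97%, 0% and 25.4% in replicates 1, 2 and 3. Cpsf3 and Fip1l1 had 2.73% and 5.17% in replicate 1 and 0 in both other replicates, and Pcf11 had 0 in all 3. For Pcf11 this was fixed in advance, since its shortest and longest models, of 461 and 5995 nt, are both complete coding. A minimum of 0 does not mean that no molecules were assigned to other models. How RSEM divides reads that fit several models was not tested.

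**Figure D3:**
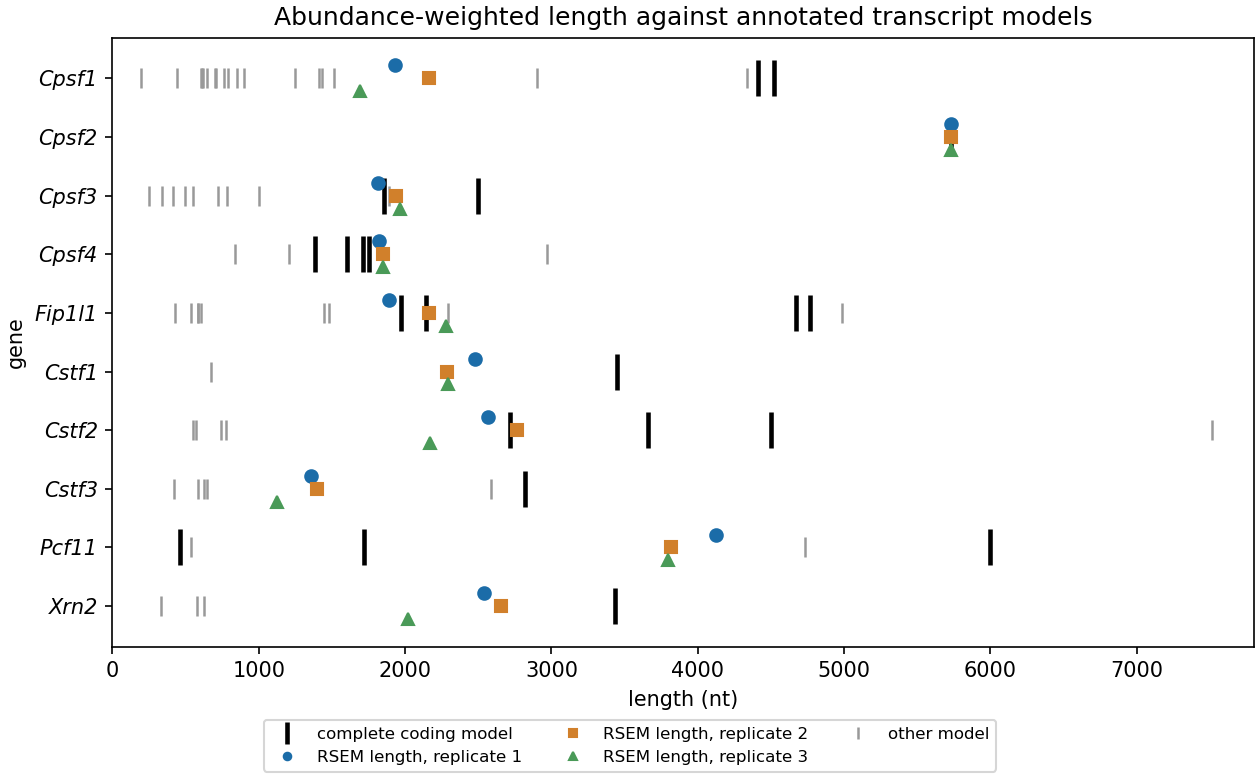
Lengths in nt (x axis) of annotated transcript models of the 10 genes (y axis), complete coding models as long black ticks and others as short grey ticks, with RSEM's abundance-weighted length in replicates 1 to 3 as circles, squares and triangles. The weighted lengths of Cpsf1, Cstf1, Cstf3 and Xrn2 fall left of their complete coding models, and that of Cpsf2 lies on its 1 model.

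Variation between replicates was then tested with edgeR's goodness-of-fit test, which asks whether a gene varies more than genes of like abundance. None of the 10 genes passed a Benjamini-Hochberg adjusted p of 0.05, against 1.84% of 12577 genes tested. None had an unadjusted p under 0.05 either, beside 875 of the 12577 genes. At such shares 0 of 10 says little. The count was also 0 with DESeq2 size factors. The lowest unadjusted p was 0.169, for Cpsf1 (edgeR goodness of fit, adjusted p = 1.00). The SD over replicates of log2 TMM-scaled CPM ran from 0.01 for Fip1l1 to 0.31 for Cpsf1. Its median was 0.11 for the 10 genes and 0.15 for 7826 expressed protein-coding genes of at least 100 mean counts. The SD of log2 effective length went the other way, with a median of 0.11 for the 10 genes and 0.07 for the 7826.

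Gene length moved with these deviations. Over 7877 protein-coding genes of at least 100 mean counts, Spearman's rho between mean RSEM length and a replicate's deviation from the mean of 3 was 0.45, 0.21 and -0.44 for replicates 1, 2 and 3. This is a description across genes, whose values share a library. Longer genes were thus relatively low in replicate 3. Cpsf2, the longest of the 10, was 0.15 above its mean (log2) in replicate 3, where the median of its length decile was -0.16, and it stood at the 95.9 percentile of that decile. Cpsf1 was 0.36 below its mean in replicate 3, in a decile with a median of 0.03, at its 4.69 percentile. Xrn2 was 0.16 above its mean there, beside a decile median of 0.01. Fip1l1 and Cstf2 stayed within 0.04 of their means in all 3 replicates.

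**Figure D4:**
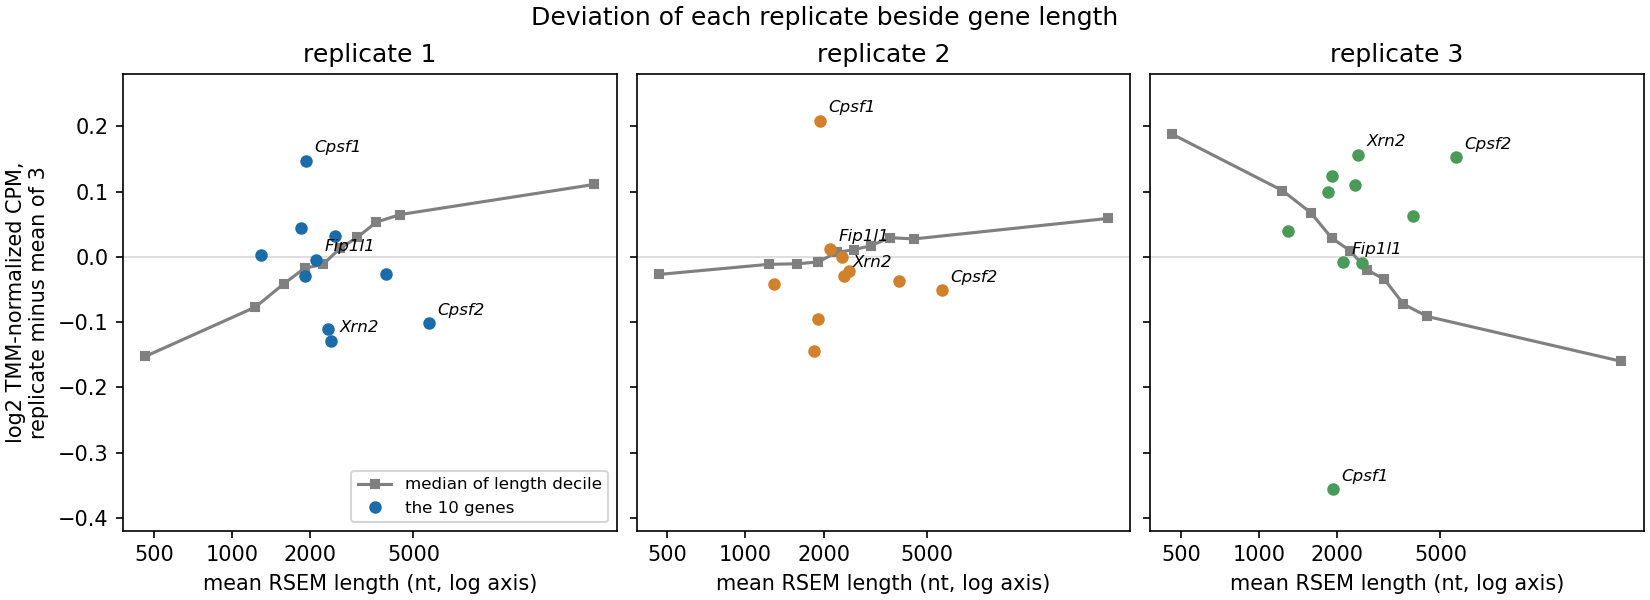
Deviation of log2 TMM-scaled CPM in each replicate from the mean of 3 (y axis) against mean RSEM length (x axis, log scale), 1 panel per replicate; coloured circles are the 10 genes and grey squares the medians of length deciles of 7877 protein-coding genes. In replicate 3 the deciles fall with length, Cpsf2 lies above its decile and Cpsf1 below.

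Close relatives of 5 factors, encoded by other genes, were set beside them. Xrn2 exceeded Xrn1, the cytoplasmic exonuclease, by 4.26 ± 1.13-fold in TPM, 4.02 ± 0.65-fold per kb of coding transcript and 1.35 ± 0.22-fold in CPM. Cstf2 exceeded Cstf2t, its intronless autosomal relative known from the testis, by 5.72 ± 1.19-fold in TPM, 3.05 ± 0.36-fold per kb of coding transcript and 3.24 ± 0.38-fold in CPM. Cpsf4 exceeded Cpsf4l by 5.23 ± 0.88-fold in TPM, 6.16 ± 0.90-fold per kb of coding transcript and 7.86 ± 1.15-fold in CPM. All 3 differences held in 3 of 3 replicates on each of these scales (SD, n = 3). The Integrator endonuclease gene Ints11, a relative of Cpsf3, was at a like level: the ratio of Cpsf3 to Ints11 was 0.96 ± 0.09 in TPM, with Cpsf3 higher in 2 of 3 replicates, and 1.31 ± 0.11 per kb of coding transcript, with Cpsf3 higher in 3 of 3. Cpsf2 exceeded Ints9, its relative in Integrator, by 1.41 ± 0.37-fold in TPM and 3.05 ± 0.76-fold in CPM, in 3 of 3 on both scales. No 30-base word of any of these 5 factors' transcripts occurred in the relative's transcripts. All 30 counts of the 10 genes were whole to within 0.005, as were those of 82.7% of the 7826 genes, as they would be with no read divided between genes. Whether the counting used strand is not given in the sources used here. The 7 factor genes that overlap a gene on the other strand (Pcf11, Cpsf1, Cpsf2, Cpsf3, Cstf2, Cstf3 and Fip1l1) are therefore uncertain to that extent.

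The other genes of the pathway were expressed as a group too. A mean of at least 1 TPM was reached by 32 of 32 genes in 4 lists, beside 44.1% of protein-coding genes. A limit of 5 TPM was reached by 26 of the 32 and by all 10 factor genes. None of the 32 varied beyond the trend in edgeR's test, beside 1.84% of all genes tested, a share at which 0 of 32 says little. Among 11 other 3′ end processing genes the span was 6.22 ± 1.14 TPM for Clp1 to 39.2 ± 6.24 TPM for Nudt21, the small subunit of cleavage factor I. Poly(A) polymerase Papola was next, at 35.5 ± 8.42 TPM. Wdr33, the CPSF subunit that contacts the hexamer together with Cpsf4, was at 12.1 ± 2.42 TPM, and the scaffold Sympk was at 12.8 ± 4.06 TPM. Counts of Nudt21 and Sympk were partly fractional, so some of their reads were shared with other genes.

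Among 11 other termination genes the span was 3.23 ± 1.07 TPM for Rprd1b, which binds the polymerase tail, to 24.8 ± 4.79 TPM for Wdr82, a subunit of a phosphatase complex of termination. The elongation factor gene Supt5 was at 27.5, 17.3 and 10.9 TPM, but at 117.1, 113.5 and 115.7 TMM-scaled CPM. So its replicates were close before division by length and the TPM scaling. Scaf4, whose protein binds the polymerase tail, was at 14.5, 7.87 and 4.46 TPM. Histone messenger RNAs are cut without a poly(A) signal by a machinery that shares the Cpsf3 endonuclease. Of its 5 listed specific genes, Slbp, which binds the histone stem-loop, was at 23.5 ± 7.08 TPM, and Lsm11 and Zfp473 were at 1.97 ± 0.25 and 1.69 ± 0.07 TPM (SD, n = 3). Lsm11 and Zfp473 were below each of the 10 factor genes in every replicate.

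**Figure D5:**
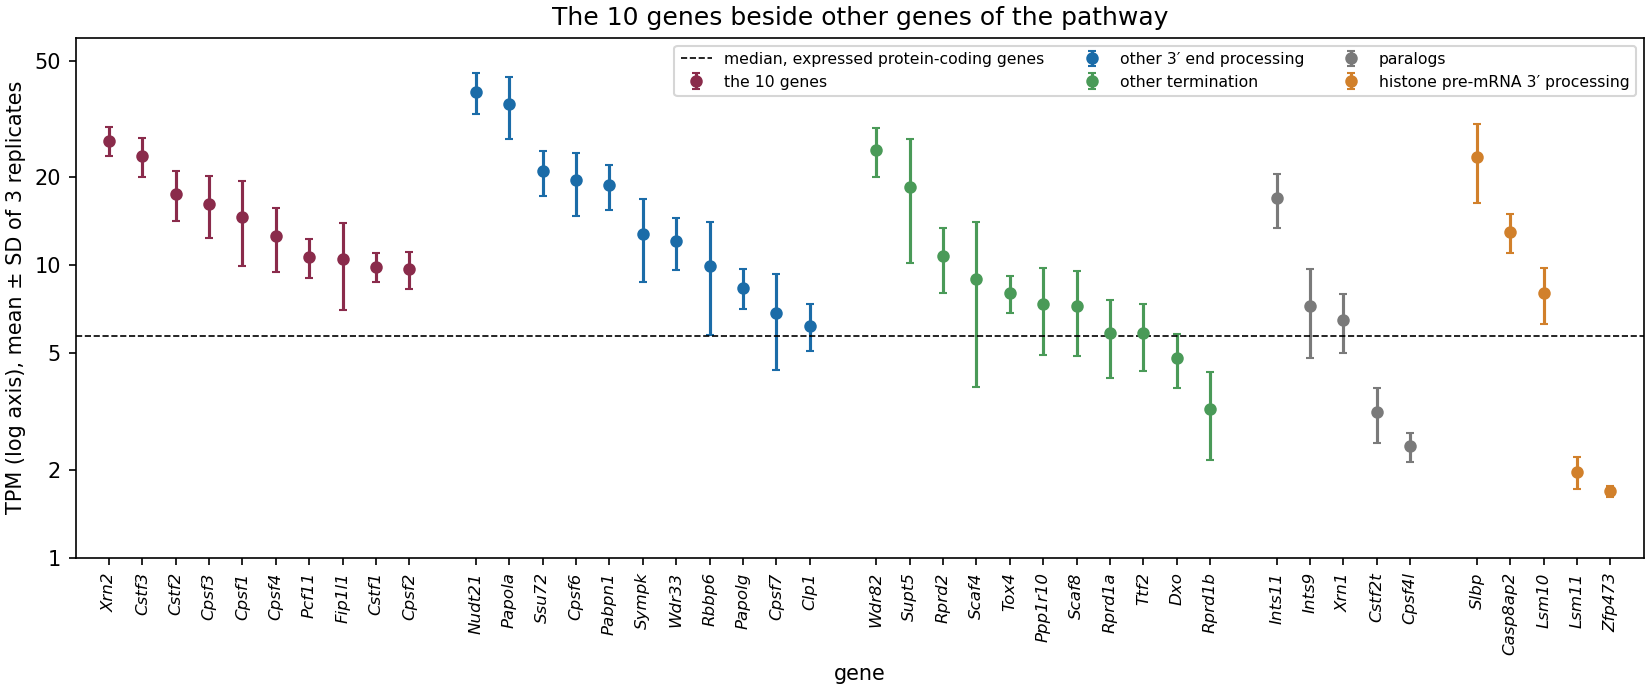
Mean TPM (y axis, log scale) with SD of 3 replicates for the 10 genes and 32 other genes of 4 lists (x axis, by list and level); the dashed line is the median of expressed protein-coding genes, 5.73 TPM. All 10 genes lie above the line, while the other lists extend from 1.69 to 39.2 TPM.

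The starts of 3 factor genes face a gene on the opposite strand within 1000 bp. Cstf1 starts 146 bp from Aurka, a mitotic kinase gene, which was at 22.4, 18.0 and 15.5 TPM and so above Cstf1 in 3 of 3 replicates. Cpsf4 starts 105 bp from Ptcd1, which was lower, at 2.37 ± 0.41 TPM (SD, n = 3). Cpsf3 shares its start region with Itgb1bp1, at 3.93 ± 1.52 TPM, whose start is 74 bp from that of the transcript Cpsf3-201. Promoter windows (RefSeq, GRCm38.p6, 250 bases before to 50 after the start) were found for 9 of the 10 genes, and Cpsf1 had none in the table. Cpsf4 had 2, of which the window at its GENCODE gene start was used. They had 60.3% to 67.0% G and C and 24 to 35 CpG, beside medians of 61.3% and 21 over windows of expressed protein-coding genes. Of 5 motifs searched on both strands, TATAAA was in 0 of the 9 windows, beside 13.6% of all windows and 6.28% of those of expressed protein-coding genes. GGGCGG was in 5 of 9, beside 35.7% and 65.4%, and CCAAT in 3 of 9, beside 37.4% and 39.3%. CCGGAAG was in 3 of 9 (Xrn2, Cpsf3 and Cstf3), beside 8.86% and 20.1%. AAGATGGCG was in 2 of 9 (Cpsf2 and Cstf1), beside 1.40% and 3.54%. The windows of the 3 genes with a facing start are printed on the plus strand, with these motifs in capitals: Cstf1 at chr2:172370753-172371052 (AAGATGGCG), Cpsf4 at chr5:145166963-145167262 (GGGCGG) and Cpsf3 at chr12:21286047-21286346 (CCGGAAG).
Cstf1: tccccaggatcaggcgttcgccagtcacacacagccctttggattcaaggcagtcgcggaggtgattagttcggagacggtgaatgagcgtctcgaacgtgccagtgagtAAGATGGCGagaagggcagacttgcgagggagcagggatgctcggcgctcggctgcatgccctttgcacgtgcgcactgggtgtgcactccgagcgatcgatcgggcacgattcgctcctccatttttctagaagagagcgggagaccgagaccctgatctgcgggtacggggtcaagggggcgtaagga
Cpsf4: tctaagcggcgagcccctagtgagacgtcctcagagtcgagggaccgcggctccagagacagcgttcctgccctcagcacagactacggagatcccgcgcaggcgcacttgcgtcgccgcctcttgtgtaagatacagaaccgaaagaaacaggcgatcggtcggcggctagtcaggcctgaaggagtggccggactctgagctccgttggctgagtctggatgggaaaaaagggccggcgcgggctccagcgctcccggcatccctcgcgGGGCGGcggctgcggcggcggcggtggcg
Cpsf3: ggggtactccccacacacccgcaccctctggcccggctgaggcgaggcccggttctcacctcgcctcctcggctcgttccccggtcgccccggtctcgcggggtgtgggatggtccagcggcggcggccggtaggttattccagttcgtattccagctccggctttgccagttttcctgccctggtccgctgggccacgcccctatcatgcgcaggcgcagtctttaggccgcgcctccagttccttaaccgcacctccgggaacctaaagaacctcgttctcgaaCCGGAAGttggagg
The windows were placed by RefSeq starts, and those of Cstf1 and Cpsf3 lie past the GENCODE gene starts at 172370681 and 21285391. So the Cstf1 window does not hold the start from which its distance to Aurka was taken. The Cpsf3 window holds the Itgb1bp1 start at 21286284 but ends before that of Cpsf3-201 at 21286358. Each of these windows held 1 of the motifs, and the pairs' levels were on both sides of even: the facing gene was above Cstf1 but below Cpsf4 and Cpsf3 in 3 of 3 replicates.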

How the data were processed

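RNA-seq was measured in 3 replicates of E14 cells. The authors deposited, per the file headers, RSEM estimated counts, TPM and FPKM per gene (FPKM was not used here), with each gene's length and effective length. The submitters' processing notes name STAR, RSEM and the build mm10; versions, annotation release and strand setting are not given in the sources used here. Genes and transcript models came from GENCODE vM21 (GRCm38): 55227 of 55487 identifiers matched, and the models of all 10 genes were identical.

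The 10 genes and all lists were chosen with earlier results of these data known. The deposited TPM was the main level, with a pseudocount of 1 on the log2 scale. Counts were rounded for edgeR 4.0.16 in R 4.3.3, with TMM scaling, the filterByExpr filter and the goodness-of-fit test at an adjusted p of 0.05 over all genes tested. Simulated counts were used to test that script. Tables and figures were made in Python 3.11.15 with pandas 2.3.3, numpy 2.4.6 and matplotlib 3.10.9. A floor of 3 counts was 0.263, 0.464 and 0.518 CPM in replicates 1, 2 and 3, for counting error only. Named genes were the 10 genes and the listed pathway, relative and marker genes; the facing and overlapping genes were taken by position. Alternatives changed the scale, length, filter, normalization (DESeq2 1.42.0 size factors), limits and replicates. For 1 listed gene the values are not reported here, and it was left out of the list counts. R-loop samples (7) were not analysed here.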

Additional observations from a re-analysis of the deposited data

How the results depend on the processing

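Of 39 alternatives to the 6 main results, 31 left the value within its replicate spread or its count within 1.5 times. Much of this was fixed in advance. Leaving out 1 of 3 replicates cannot move a mean of 3 values by as much as their SD. The lowest TPM of any factor gene in any replicate was 7.33, so limits of 1 and 5 TPM had to give all 10. Changes of scale or length moved 6 values and changed the sign of 2. All 10 factor genes reached 1 TPM, and 0 of 10 varied beyond the edgeR trend, under every alternative run for these counts, leaving out each replicate included. The edgeR test called at most 289 genes in any setting, out of 12558 or more tested, so 0 of 10 says little in each. The median level of 3.83 became 5.22 with short genes left out of the TPM total and 6.34 on log2(CPM + 1), and 3.63 to 4.001 with 1 replicate left out. The log2 ratio of Xrn2 to Cpsf2, 1.46 in TPM, became 0.15 in CPM and 0.89 with the longest transcript, which for both genes is also the longest complete coding one, and 1.33 to 1.53 with 1 replicate left out. The log2 ratio of CPSF to CstF medians, -0.51 in TPM, became -0.081 in CPM. Its sign changed with the longest transcript length, to 0.17 ± 0.15, and with the longest complete coding transcript, to 0.055 ± 0.15 (SD, n = 3). The second value is smaller than its spread, and the first is close to it. In TPM the ratio ran from -0.56 to -0.43 with 1 replicate left out. By construction, the alternatives of scale and length change only the length or the total used. The Cpsf3 to Ints11 log2 ratio, -0.07 in TPM, became 0.47 in CPM, 0.39 per kb of coding transcript, 0.011 without replicate 2 and -0.107 without replicate 1. Alternatives using the complete coding length, those for relatives, minimum shares and single levels were chosen after seeing the data. No paired analysis was possible because only 1 group was analysed. With 297 counts at the lowest, the 10 genes lie far above the 3-count floor.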

Other observations

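Several factor genes overlap a gene on the opposite strand that had its own counts. A transcript annotated on the other strand of Pcf11, 6430511E19Rik, overlaps it by 241 bp and had 304, 168 and 137 counts in replicates 1, 2 and 3, at 2.46 ± 0.54 TPM (SD, n = 3). The log2 ratio of Pcf11 to it, on the log2(TPM + 1) scale, was 1.75 ± 0.03, with values of 1.72, 1.76 and 1.77. That SD was the smallest among the overlapping and facing genes, where it reached 0.66 for Cpsf1 and Adck5. A link between Pcf11 and 6430511E19Rik was not tested. Tcp11l1 overlaps Cstf3 by 8142 bp and had 115, 48 and 22 counts. Ndufb1-ps overlaps Cpsf2 by 1081 bp and had 58, 68 and 35 counts, so that its highest count fell in replicate 2, whereas Cpsf2 itself had 1710, 985 and 908. Lnx1, which overlaps Fip1l1 by 6354 bp, had 17, 7 and 1 counts.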
